A study of Saccharomyces cerevisiae with 8 samples.

Results

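The 10 genes described here, called chaperone genes below, encode heat shock proteins of budding yeast and constitutive relatives of them. They are the Hsp70 genes *SSA1*, *SSA2*, *SSA3* and *SSA4*, the Hsp90 genes *HSP82* and *HSC82*, the disaggregase gene *HSP104*, and the small heat shock protein genes *HSP12*, *HSP26* and *HSP42*. They were chosen by name from the 6002 nuclear protein-coding genes of the R64 (sacCer3) reference. No measured value enters the rule, though earlier results of these data were known when the genes were chosen. *SSA2* and *HSC82* are mostly constitutive, and the other 8 are induced by stress. The measurements are the positions of nucleosome-sized peaks in chromatin cut with micrococcal nuclease (MNase, which digests the linker DNA between nucleosomes). For each of 4 strains, 1 list came from input chromatin and 1 from anti-Flag ChIP of Cse4, the budding yeast CENP-A, which replaces histone H3 in centromeric nucleosomes.

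All strains were in the W303 background, lacked the endogenous *CSE4* gene and carried Flag-tagged *CSE4* under its own promoter at *URA3*. The *3Flag-CSE4* strain had no further alteration of these genes. In *psh1 3Flag-CSE4* the *PSH1* gene, which encodes an E3 ubiquitin ligase that targets Cse4, was deleted. The *pGAL-3Flag-CSE4* strain carried an additional tagged copy under the *GAL* promoter at *LEU2*, and *psh1 pGAL-3Flag-CSE4* combined that copy with the deletion. Asynchronous cells of every strain grew in lactic acid medium, received 2% galactose for 2 h and were crosslinked with 1% formaldehyde for 15 min. The labels describe no heat shock. Each strain gave 1 input and 1 ChIP library, so the strains are compared without a replicate spread and no test was made. The lists hold no peak height or read count, so the depth behind a peak cannot be read from them, and a window without a peak shows only that none was called there.

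Hsp70 proteins bind exposed hydrophobic stretches of unfolded proteins in cycles driven by ATP, and Hsp90 acts later on a narrower set of client proteins. Hsp104 is a ring-shaped ATPase that pulls polypeptides out of aggregates, Hsp26 and Hsp42 hold misfolded proteins in a state from which they can be refolded, and Hsp12 is a small protein associated with membranes. Transcription of these genes is driven by Hsf1, which binds heat shock elements (inverted repeats of GAA), and by Msn2 and Msn4, which bind stress response elements. Some heat shock promoters in yeast are known for regions with few nucleosomes even before stress.

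The upstream windows that carry the clearest arrangement of these elements are printed first, because their elements lay under ChIP peaks at some genes and outside them at others. A heat shock element of 3 units was searched as GAANNTTCNNGAA or TTCNNGAANNTTC, one of 2 units as GAANNTTC or TTCNNGAA, the stress response element as AGGGG or CCCCT, and TATAAA or TTTATA as such. Both strands were covered by these spellings, and each match to 3 units also contains matches to 2 units. Within 500 bp upstream of the start codon, the form with 3 units was present at 4 of the 10 genes (*SSA1*, *SSA2*, *HSP104* and *HSP42*) and in 1.48% of the 6002 upstream windows. The form with 2 units was found at 8 of the 10 genes and in 35.2% of all windows, AGGGG at 7 and in 34.1%, and TATAAA at 7 and in 60.5%. *SSA3* had no match to either form of the heat shock element or to AGGGG, and *HSP12* had 5 matches to AGGGG and none to the heat shock element. Each line below gives R64 reference sequence on the strand of the gene, 5′ to 3′, with the heat shock element of 3 units (or, for *HSP12*, the stress response element) in capitals. The positions are chrI:141670-141805 (minus strand, 374 to 239 bp upstream of *SSA1*), chrXII:88311-88348 (plus strand, 312 to 275 bp upstream of *HSP104*), chrXII:97641-97740 (minus strand, 255 to 156 bp upstream of *SSA2*), chrIV:806360-806470 (plus strand, 261 to 151 bp upstream of *HSP42*) and chrVI:106970-107040 (plus strand, 286 to 216 bp upstream of *HSP12*).
SSA1 stretch with both clusters: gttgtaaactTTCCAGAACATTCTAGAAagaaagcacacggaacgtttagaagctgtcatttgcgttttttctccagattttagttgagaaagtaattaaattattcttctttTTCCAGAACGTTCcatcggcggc
HSP104 stretch: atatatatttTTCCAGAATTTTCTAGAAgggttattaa
SSA2 part of a ChIP peak: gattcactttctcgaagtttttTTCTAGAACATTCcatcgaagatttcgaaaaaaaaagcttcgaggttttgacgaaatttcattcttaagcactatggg
HSP42 whole ChIP peak: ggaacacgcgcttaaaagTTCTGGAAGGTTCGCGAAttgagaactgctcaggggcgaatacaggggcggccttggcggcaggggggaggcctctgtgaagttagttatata
HSP12 whole ChIP peak: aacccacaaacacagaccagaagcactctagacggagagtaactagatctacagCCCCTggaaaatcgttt
The first pair of stretches lay under no ChIP peak in any strain, while the others lay under ChIP peaks of *psh1 pGAL-3Flag-CSE4*. The *HSP42* line is a whole peak of that strain. The *HSP12* line is a whole peak of *pGAL-3Flag-CSE4* and only part of a wider peak of *psh1 pGAL-3Flag-CSE4*. The strains are W303 and the letters are those of the reference, so differences between the strains and the reference would not be seen here.

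The lists differed in size, with 17, 66, 4043 and 14199 ChIP peaks in *3Flag-CSE4*, *psh1 3Flag-CSE4*, *pGAL-3Flag-CSE4* and *psh1 pGAL-3Flag-CSE4*, and 40108, 31268, 39937 and 18908 input peaks in the same order of strains. The deleted gene *PSH1* was overlapped by 8, 0, 8 and 0 input peaks, in accord with the labels. For *psh1 pGAL-3Flag-CSE4* this check is weaker, since input peaks lay over fewer genes of any kind there. A gene or window was counted as having a peak when at least 1 bp overlapped.

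Without overexpression, no ChIP peak lay over any of the chaperone genes or within 500 bp on either side. This held for both *3Flag-CSE4* and *psh1 3Flag-CSE4*. Few genes of any kind had one: upstream windows had a peak at 0.117% of all genes in *3Flag-CSE4* and 0.333% in *psh1 3Flag-CSE4*, the genes themselves at 0% and 0.167%, and downstream windows at 0.250% and 0.616%. The count of 0 among 10 genes was therefore near this background.

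In *pGAL-3Flag-CSE4*, ChIP peaks lay downstream of the chaperone genes and seldom upstream of them. The downstream window held a peak at 9 of the 10 genes, all but *SSA1*, against 41.3% of all genes. The upstream window held one at 1 gene, *HSP12*, against 49.1% of all genes, and the gene itself at 1, *SSA3*, against 22.0%. A peak downstream with none upstream was found at 8 of the 10 genes and at 20.7% of all genes, whereas the opposite arrangement was found at none of the 10 and at 28.6% of all genes. *SSA1*, an inducible Hsp70 gene, had no ChIP peak in any of the windows, and *HSP12* had peaks on both sides. These counts come from 1 library and 10 chosen genes, so they carry no test.

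**Figure D1:**
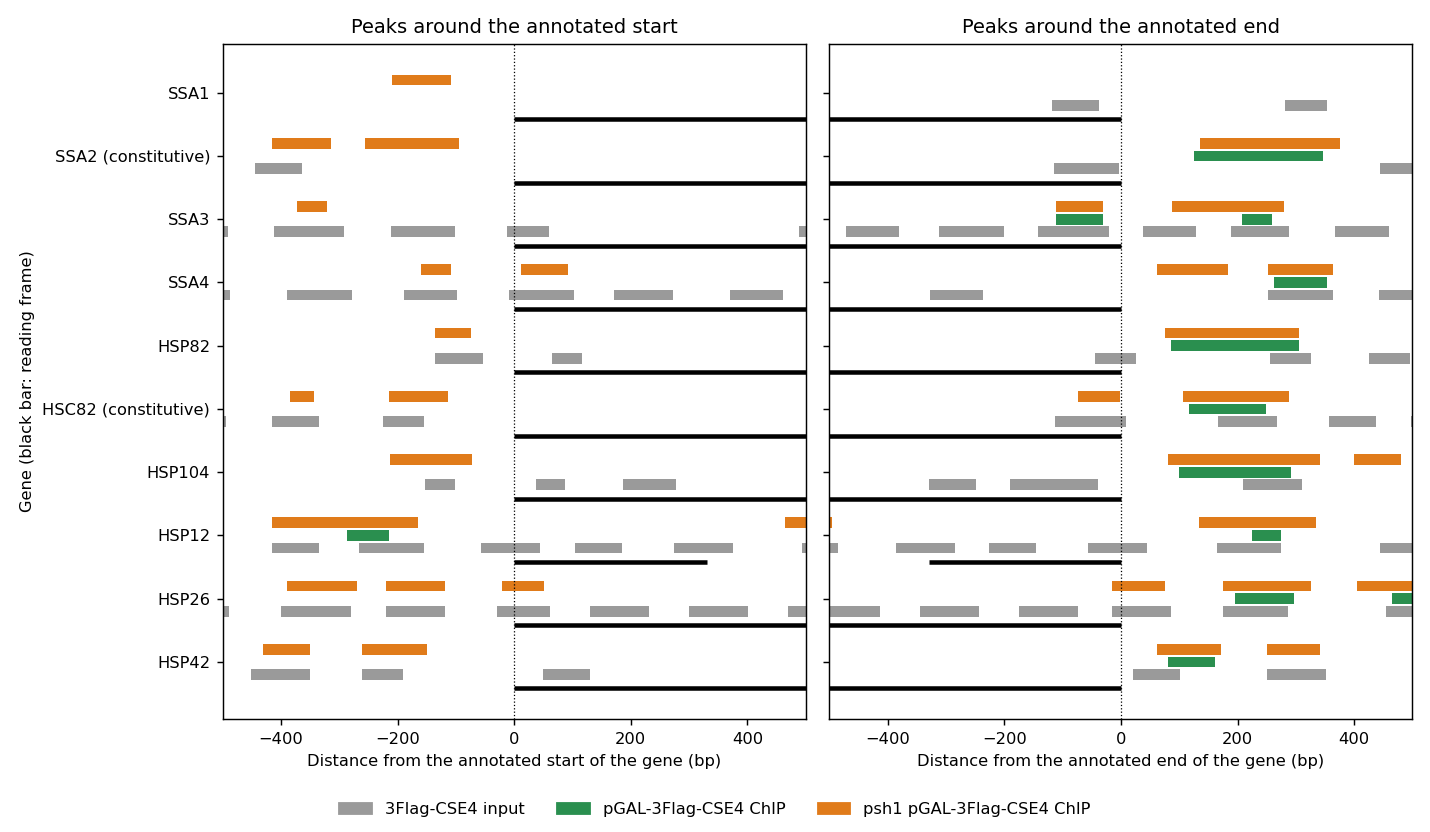
Positions of *3Flag-CSE4* input peaks (grey), *pGAL-3Flag-CSE4* ChIP peaks (green) and *psh1 pGAL-3Flag-CSE4* ChIP peaks (orange) at each chaperone gene, as distance in bp from the annotated start (left) and the annotated end (right); the black bar is the reading frame. Green bars stand to the right of the end at 9 of the 10 genes and to the left of the start at *HSP12* alone.

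Among the Hsp70 genes, the constitutive *SSA2* had the widest downstream peak of *pGAL-3Flag-CSE4*, at 221 bp. It lay 126 to 346 bp past the stop codon, in sequence with 81.0% A+T, between *SSA2* and the convergent gene *PAU17*, whose nearest edge was 445 bp away. The peak downstream of *SSA3* was 51 bp wide, 209 to 259 bp past the end, and spanned the start of the next gene on the same strand, *ILS1*, at 238 bp. *SSA3* also held the single peak inside a chaperone gene, which was 81 bp wide, covered bases 1839 to 1919 of the 1950 bp gene and had 33.3% A+T. At *SSA4* the peak was 91 bp wide, 263 to 353 bp past the end, and likewise spanned the start of the following gene, *RTT105*, at 285 bp. The downstream window of *SSA1* held a tRNA gene, *TRN1*, 249 bp from its end, and 82.8% of its 24-base words, the read length of the study, occurred once in the genome, compared with 99.8% to 100% downstream of the other genes. Whether this bears on the missing peak was not tested.

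Both Hsp90 genes had a downstream peak. At the inducible *HSP82* it was 221 bp wide and lay 86 to 306 bp past the end, across the start of *CIN2* at 238 bp on the same strand. At the constitutive *HSC82* it was 131 bp wide and lay 118 to 248 bp past the end, reaching into the 3′ end of the convergent *YMR187C*, 217 bp away. The peak of *HSP104* was 191 bp wide, 101 to 291 bp past the end, with no other protein-coding gene in the window. Of the small heat shock protein genes, *HSP42* had a peak 82 to 162 bp past its end, again with no protein-coding neighbour, and *HSP12* one 225 to 275 bp past its end, across the near edge of the convergent *IES1* at 267 bp. *HSP26* had a pair of downstream peaks, 101 bp wide at 196 to 296 bp and 51 bp wide at 466 to 516 bp, over *YBR072C-A* on the opposite strand and the beginning of *RDH54* on the same strand. Of the 10 downstream peaks, those of *SSA2*, *HSP104* and *HSP42* touched no annotated protein-coding gene, and the others overlapped a neighbour at its start, at its 3′ end or inside it.

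Across all genes, downstream peaks in *pGAL-3Flag-CSE4* differed with what the window held. They were present at 57.6% of the 1879 genes with only a same-strand neighbour in the window, 48.2% of the 1470 with no other protein-coding gene and 25.6% of the 2611 with only an opposite-strand neighbour. The chaperone genes counted 3 of 3 (*SSA3*, *SSA4*, *HSP82*), 2 of 3 (*HSP104* and *HSP42*, not *SSA1*) and 3 of 3 (*SSA2*, *HSC82*, *HSP12*) in the same order. *HSP26*, with neighbours on both strands, had peaks too, as did 42.9% of 42 such genes. The 10 downstream peaks had a median width of 96 bp, against 81 bp for all pairs of a gene and a downstream peak, and 3 of them were 190 bp or wider (*SSA2*, *HSP82* and *HSP104*), against 4.09% of all such pairs. Their centres had a median distance of 235 bp past the end, against 233 bp for all genes. Median A+T content was 63.0% at the chaperone peaks and 64.2% at all downstream peaks. Their position and base composition thus lay close to those of other genes. Their widths, from 51 to 221 bp, lay on both sides of the 81 bp median of all pairs, with a larger share of wide peaks.

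A lack of input peaks accompanied the missing upstream peak at 3 of the genes and not at the other 6. The list of *pGAL-3Flag-CSE4* input had at least 1 upstream peak at 7 of the 10 genes, and of these 7 only *HSP12* had a ChIP peak, whereas 51.7% of the 5675 genes with such an input peak had one. The other 3 genes, *SSA1*, *HSP82* and *HSP104*, had neither, and a ChIP peak was also infrequent, at 3.67%, among the 327 genes without an upstream input peak. The *HSP12* ChIP peak was 71 bp wide and lay 216 to 286 bp upstream of the start, over 1 of the 5 stress response elements of that promoter, the one in capitals in the sequence above. It thus lay between the start of *HSP12* and that of *YFL015C*, a gene on the opposite strand that starts 293 bp upstream.

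**Figure D2:**
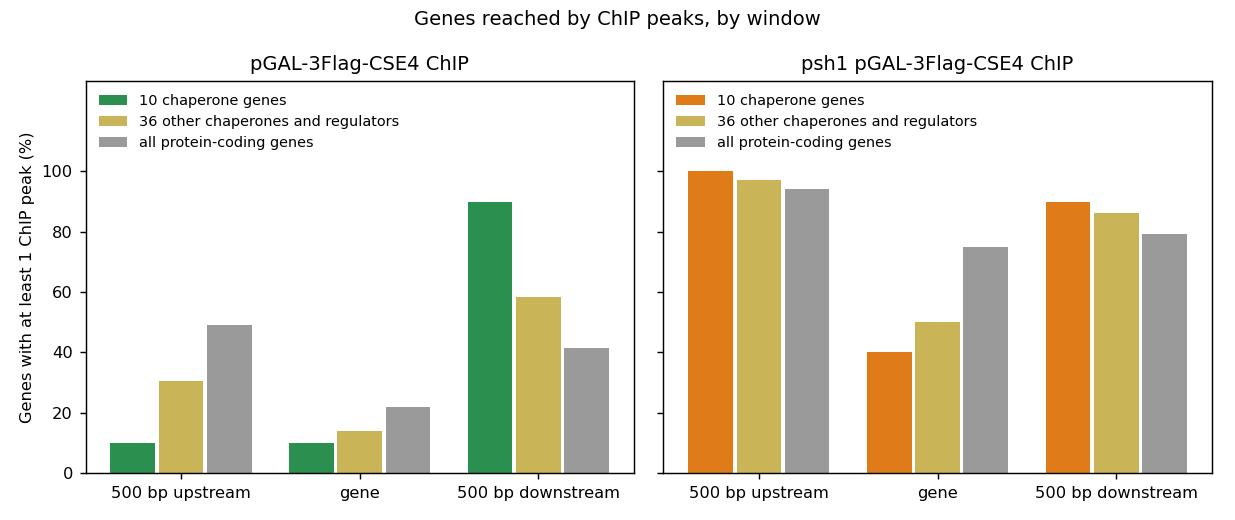
Share of genes (%) with at least 1 ChIP peak in the 500 bp upstream, the gene and the 500 bp downstream, for the 10 chaperone genes, 36 other chaperones and regulators, and all 6002 protein-coding genes. In *pGAL-3Flag-CSE4* (left) the bar of the chaperone genes stands below that of all genes upstream and above it downstream, and in *psh1 pGAL-3Flag-CSE4* (right) it stands below that of all genes only over the gene.

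In *psh1 pGAL-3Flag-CSE4*, where Cse4 was overexpressed and Psh1 was absent, the upstream windows of all 10 chaperone genes had a ChIP peak. The background was high, at 94.2% of all genes, so the count of 10 upstream was near it. Downstream, 9 of the 10 genes had a peak, again all but *SSA1*, against 79.4% of all genes. Within the gene, 4 of the 10 had one (*SSA3*, *SSA4*, *HSC82* and *HSP26*), against 74.8% of all genes. Of the genes without one, *SSA1*, *SSA2* and *HSP82* had 33.2%, 32.9% and 77.4% of their 24-base words found once in the genome. *HSP104*, *HSP12* and *HSP42* had 100%, and *HSC82*, which had a peak, 77.2%. Whether repeated sequence bears on this count, or on that of *pGAL-3Flag-CSE4*, was not tested. All 12 peaks of *pGAL-3Flag-CSE4* over these genes and windows were overlapped by a peak in *psh1 pGAL-3Flag-CSE4*, as were 99.8% of all 4043.

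Although every upstream window held a peak, those of the chaperone genes had fewer bases under ChIP peaks than most. The median was 141.5 bp of 500, against 232 bp for all genes. *SSA3* and *SSA4* had 51 bp each, *HSP82* 61 bp, *SSA1* 101 bp, *HSP104* 141 bp, *HSC82* 142 bp, *HSP42* 192 bp, *HSP26* 242 bp, *HSP12* 251 bp and *SSA2* 262 bp. The 3 small heat shock protein genes and *SSA2* thus made up the upper part of this order, and the inducible Hsp70 and *HSP82* promoters the lower part. Downstream the median was above that of all genes, at 216.5 bp against 144 bp, with 0 bp at *SSA1*, 181 bp at *HSC82*, 191 bp at *SSA3*, 201 bp at *HSP12*, 202 bp at *HSP42*, 231 bp at *HSP82*, 232 bp at *SSA4*, 241 bp at *SSA2*, 322 bp at *HSP26* and 342 bp at *HSP104*. Except for *SSA1*, every chaperone gene was above the median of all genes downstream.

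**Figure D3:**
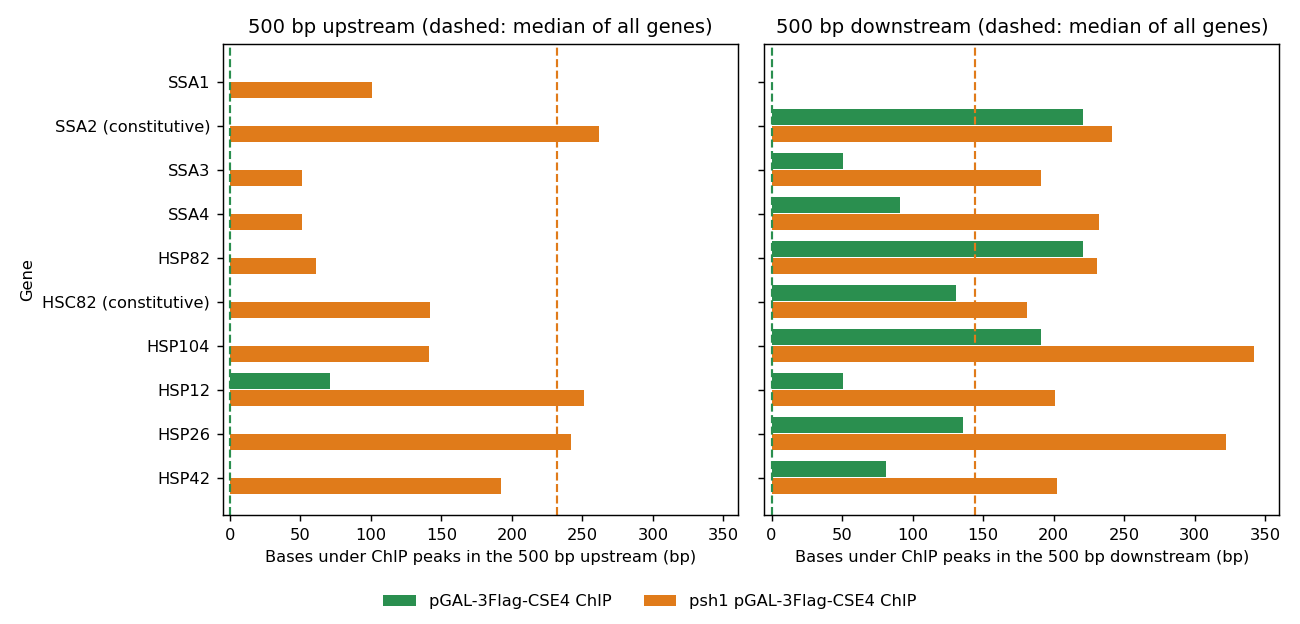
Bases (bp) under ChIP peaks in the 500 bp upstream (left) and downstream (right) of each chaperone gene in *pGAL-3Flag-CSE4* (green) and *psh1 pGAL-3Flag-CSE4* (orange), with dashed lines at the median of all genes, which is 0 bp for *pGAL-3Flag-CSE4* on both sides. For *psh1 pGAL-3Flag-CSE4* 7 of the 10 upstream bars end below the dashed line at 232 bp, and 9 of the 10 downstream bars end above that at 144 bp.

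The 15 upstream peaks of this strain had centres between 15 bp inside the gene and 391 bp upstream of the start, with a median of 175 bp, against 199 bp for all genes. *SSA1* had 1 peak, 109 to 209 bp upstream, and *HSP104* 1 peak, 73 to 213 bp upstream. *HSP82* had 1 peak at 75 to 135 bp, *SSA4* 1 at 109 to 159 bp and *SSA3* 1 at 322 to 372 bp. The *SSA3* peak lay inside the upstream neighbour *AAR2*, whose near edge was 274 bp from the start of *SSA3*. *SSA2* had 1 peak at 95 to 255 bp and another at 315 to 415 bp, and *HSC82* had 1 at 115 to 215 bp and another at 345 to 385 bp. The constitutive *SSA2* and *HSC82* thus each had 2 upstream peaks, which is the median of all genes, and their inducible partners *SSA1* and *HSP82* 1. In *HSP42* the pair of peaks lay at 151 to 261 bp and 351 to 431 bp. *HSP12* had a single wide peak of 251 bp, at 166 to 416 bp, and *HSP26* had 3, the nearest of which ran from 20 bp upstream of the start to base 51 of the gene.

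The heat shock elements of 3 units lay under ChIP peaks at some promoters and outside them at others. At *SSA1* the matches lay 249 to 261 and 347 to 364 bp upstream, beyond the ChIP peak, and at *HSP104* they lay 285 to 302 bp upstream, again beyond it. At *SSA2* the match, 221 to 233 bp upstream, was under a ChIP peak, as were those of *HSP42*, 226 to 243 bp upstream. Of the 8 matches in all, some of which overlap each other, 3 were under ChIP peaks of *psh1 pGAL-3Flag-CSE4*. In the input lists the *SSA1* and *HSP104* matches were under no peak in any strain, the *SSA2* match was under a peak in *pGAL-3Flag-CSE4* alone, and those of *HSP42* in the 3 strains other than *psh1 3Flag-CSE4*. A match counted as under a peak at an overlap of at least 1 bp. The *HSP42* matches were covered only in part by the input peaks of *pGAL-3Flag-CSE4*, 191 to 241 bp upstream, and *psh1 pGAL-3Flag-CSE4*, 181 to 231 bp upstream. For the other motifs, 11 of 23 matches to 2 units, 11 of 21 to AGGGG and 5 of 13 to TATAAA lay under ChIP peaks of *psh1 pGAL-3Flag-CSE4*. In that strain the upstream windows had a median of 28.3% of their bases under ChIP peaks at the 10 genes and 46.4% at all genes. How often the same motifs lay under peaks at all genes was not counted. The motif counts therefore have no background to be set against. The 3 AGGGG matches of *HSP42* are all in the printed peak, in lower case, and 4 of the 5 of *HSP12* were under its peak. A match is a description of the letters and not evidence that a factor was bound.

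Inside the chaperone genes, the few ChIP peaks of *psh1 pGAL-3Flag-CSE4* sat at the ends. *SSA3* had the same 81 bp peak as in *pGAL-3Flag-CSE4*, *SSA4* one over bases 12 to 92, *HSC82* one over bases 2046 to 2116 of 2118, and *HSP26* one at each end. With the first and last 150 bp of each gene left out, none of the 10 genes had a peak in either overexpressing strain, against 0.900% of all genes in *pGAL-3Flag-CSE4* and 28.5% in *psh1 pGAL-3Flag-CSE4*. The downstream peaks of *psh1 pGAL-3Flag-CSE4* numbered 14, with a median width of 146 bp, against 111 bp for all pairs of a gene and a downstream peak, and 5 were 190 bp or wider, against 25.8% of all such pairs. At *SSA4* a second peak, 63 to 183 bp past the end, stood in front of the one shared with *pGAL-3Flag-CSE4*. *HSP104* had a further one at 401 to 481 bp and *HSP42* one at 252 to 342 bp, and *HSP26* had 3 downstream peaks.

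Paralogs allow the constitutive genes to be set beside their closest inducible relatives. *SSA1* and *SSA2* were 96.4% identical over the coding sequence, and *HSP82* and *HSC82* 91.7%, while their 500 bp upstream windows were 46.2% and 43.9% identical, so the promoters could be told apart by their sequence. Upstream, *SSA2* had 262 bp under *psh1 pGAL-3Flag-CSE4* ChIP peaks and *SSA1* 101 bp, and *HSC82* had 142 bp and *HSP82* 61 bp. Input peaks had the same order: the upstream windows of *SSA2* held 1, 2, 2 and 1 in *3Flag-CSE4*, *psh1 3Flag-CSE4*, *pGAL-3Flag-CSE4* and *psh1 pGAL-3Flag-CSE4*, and those of *SSA1* 0, 1, 0 and 0. *HSC82* held 3, 2, 3 and 1, and *HSP82* 1, 1, 0 and 0. In both pairs the constitutive gene thus had more input peaks and more ChIP bases upstream than its partner. For *HSC82* and *HSP82* in *psh1 3Flag-CSE4* input, that order rested on a peak of *HSC82* at the window edge, 495 to 585 bp upstream. The bases under input peaks there were 87 and 81 bp. The class as a whole did not separate, since the inducible *SSA3* held 4, 3, 4 and 2 upstream input peaks and *SSA4* 4 in every strain, and the inducible genes ranged from 51 to 251 bp of upstream ChIP bases. Downstream in *psh1 pGAL-3Flag-CSE4*, *HSC82* had 181 bp and *HSP82* 231 bp, so there the constitutive gene had fewer bases in this pair and more in that of *SSA2* and *SSA1*. *SSA3* and *SSA4*, 76.4% identical, had 51 bp each upstream.

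Input peaks, which stand for nucleosomes of any composition, were present at most chaperone promoters. The upstream window held one at 9, 10, 7 and 7 of the 10 genes in *3Flag-CSE4*, *psh1 3Flag-CSE4*, *pGAL-3Flag-CSE4* and *psh1 pGAL-3Flag-CSE4*, against 93.9%, 93.0%, 94.6% and 88.5% of all genes. The downstream window held one at 10, 10, 10 and 6, against 93.3%, 90.2%, 94.1% and 64.2%. The longest stretch of the *3Flag-CSE4* upstream window without an input peak was all 500 bp at *SSA1*, 365 bp at *HSP82*, 364 bp at *SSA2* and 347 bp at *HSP104*. It was 190 bp at *HSP42*, 154 bp at *HSC82*, 99 bp at *SSA4* and *HSP12*, and 89 bp at *SSA3* and *HSP26*. The median was 172 bp, against 169 bp for all genes, with 4 genes far above it and 4 far below. In the other input lists the medians were 285 bp against 189 bp (*psh1 3Flag-CSE4*), 151.5 bp against 143 bp (*pGAL-3Flag-CSE4*) and 294 bp against 209 bp (*psh1 pGAL-3Flag-CSE4*). *SSA1*, *HSP82* and *HSP104* had no upstream input peak at all in both overexpressing strains, yet each had a ChIP peak there in *psh1 pGAL-3Flag-CSE4*. Among all genes without an upstream input peak in that strain, 60.3% of 693 had an upstream ChIP peak, against 98.6% of the 5309 with one.

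Over the genes themselves, input peaks were sparse. The 10 genes held 35, 23, 18 and 11 input peaks in the same order of strains, which is 2.08, 1.37, 1.07 and 0.655 per kb, against 3.56, 2.64, 3.45 and 1.40 per kb over all genes. At least 1 was present at 10, 9, 7 and 7 genes, against 90.9%, 88.6%, 90.7% and 77.1% of all genes. The median share of the gene under *3Flag-CSE4* input peaks was 11.2%, against 35.8%. It was 59.2% at *SSA3*, 58.8% at *HSP26*, 55.2% at *HSP12* and 47.2% at *SSA4*, and between 4.20% and 15.2% at *SSA1*, *HSP82*, *HSC82*, *SSA2*, *HSP42* and *HSP104*. In this list 4 genes were thus above the median of all genes and 6 below it, both constitutive genes included. The other lists divided the genes differently: in *pGAL-3Flag-CSE4* input only *SSA3*, at 42.8%, was above the median of 30.2%, and in *psh1 3Flag-CSE4* only *SSA4* and *HSP26*, at 26.3% and 47.9%, were above 19.3%. In *psh1 pGAL-3Flag-CSE4*, *SSA4* at 13.2%, *HSP42* at 8.16% and *HSP26* at 7.91% were above 7.21%.

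Repeated sequence accompanied the low values at some of these genes and not at others. The study kept fragments with a high mapping score, so a fragment that is present more than once in the genome could be missing from a list. Only 33.2% of the 24-base words of *SSA1* and 32.9% of those of *SSA2* occurred once in the genome, with an identical run of 383 bp between the paralogs, and the share was 77.4% for *HSP82* and 77.2% for *HSC82*. A fragment of 150 bp had at least 1 end found once for 43.5% of positions in *SSA1*, 43.3% in *SSA2* and 96.7% in *HSP82* and *HSC82*. *HSP104* and *HSP42*, however, consisted of words found once and had 415 of 2727 bp and 81 of 1128 bp under *3Flag-CSE4* input peaks. Per kb of sequence found once, the rate over the 10 genes was 2.64 for *3Flag-CSE4* input and 1.36 for *pGAL-3Flag-CSE4* input, and over all genes, counted the same way, 3.81 and 3.69. What part repeated sequence has in these values was not tested further. The upstream windows consisted of words found once at all 10 genes.

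**Figure D4:**
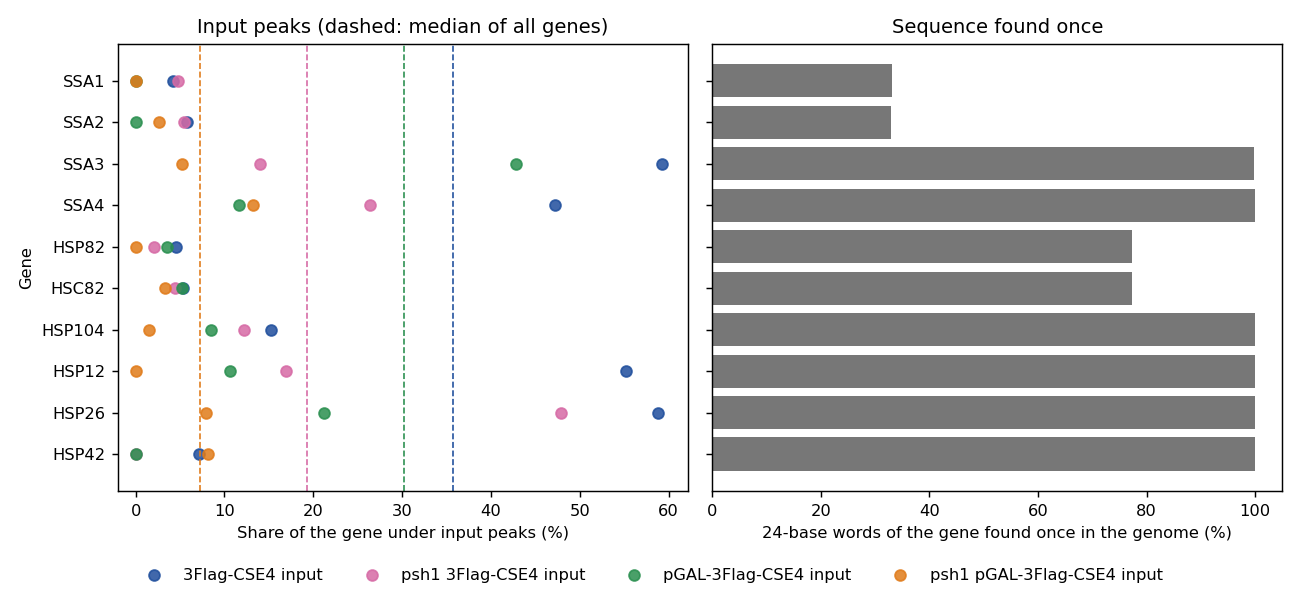
Left, share of each chaperone gene (%) under input peaks in the 4 strains, with dashed lines at the median of all genes in each strain; right, share (%) of the 24-base words of the gene that are found once in the genome. *SSA1*, *SSA2*, *HSP82* and *HSC82* lie below the median of each strain on the left and below 80% on the right, whereas *HSP104*, below every median, and *HSP42*, below all but that of *psh1 pGAL-3Flag-CSE4*, are at 100% on the right.

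The lists of *3Flag-CSE4* and *pGAL-3Flag-CSE4* input were of nearly equal size, yet they differed over the chaperone genes. Of the 35 peaks of *3Flag-CSE4* over these genes, 17, or 48.6%, were overlapped in *pGAL-3Flag-CSE4*, against 83.6% of the 31414 such peaks over all genes. Upstream, 20 of 23 were overlapped, or 87.0% against 94.7%, and downstream 20 of 23, or 87.0% against 93.8%. *SSA4* held 9 input peaks over the gene in the former list and 3 in the latter, with 910 and 224 bp covered. *HSP104* held 5 and 2, *HSP26* 5 and 3, and *HSP12* 3 and 1. *SSA3* held 7 in both lists, with 1155 and 835 bp. In *psh1 3Flag-CSE4* the 10 genes kept 65.7% of the gene peaks, close to the 66.8% of all genes, and in *psh1 pGAL-3Flag-CSE4* 28.6%, against 37.4%. The bases under peaks in *3Flag-CSE4* and *pGAL-3Flag-CSE4* input were 81 and 0 bp at *SSA1*, 111 and 0 bp at *SSA2*, and 81 and 0 bp at *HSP42*. They were 96 and 75 bp at *HSP82*, and 113 and 111 bp at *HSC82*. The median over all genes was 383 and 318.5 bp, and each value comes from 1 library. The study lists more input reads for *pGAL-3Flag-CSE4* than for *3Flag-CSE4*, and whether this bears on the difference was not tested.

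Other chaperones, co-chaperones and regulators, a list of 36 genes, had intermediate shares. In *pGAL-3Flag-CSE4* 11 of the 36 had a ChIP peak upstream, 5 over the gene and 21 downstream, against 49.1%, 22.0% and 41.3% of all genes. A peak downstream with none upstream was found at 16 and the opposite at 6, against 20.7% and 28.6% of all genes. In *psh1 pGAL-3Flag-CSE4* the counts upstream, over the gene and downstream were 35, 18 and 31, against 94.2%, 74.8% and 79.4% of all genes. The ribosome-associated Hsp70 genes *SSB1* and *SSB2* had no upstream peak in *pGAL-3Flag-CSE4*, where 49.1% of all genes had one, and had 242 and 111 bp under peaks downstream. *SSB1* also had 1 downstream peak in *psh1 3Flag-CSE4*, the only gene of the list to have one without overexpression. The regulator gene *HSF1* had 1 peak over the gene and none in its flanks in *pGAL-3Flag-CSE4*, *MSN2* had 1 downstream, and *MSN4* had 1 on each side. *HSP32*, a member of the Hsp31 family, was the single gene of the list with no upstream ChIP peak in *psh1 pGAL-3Flag-CSE4*, and 0% of its 24-base words occurred once in the genome.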

How the data were processed

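Peak lists of 8 libraries were used, with 1 input and 1 ChIP library per strain and groups taken from the sample labels. The authors aligned 24-base paired reads with BWA to sacCer3, kept proper pairs of high mapping score and mononucleosome size, and called peaks with DANPOS2. For ChIP they subtracted input, scaled the signal to the centromeres of each strain, set ribosomal DNA to 0 and used 1 height, taken from *3Flag-CSE4* centromeres, for all strains. The settings for input peaks are not stated. Each deposited line holds a chromosome, a start and an end in bp, and the deposited score was 0 in every line. The study lists unequal read numbers for the libraries, whose part in the peak numbers was not tested.

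Genes were taken from the RefSeq annotation of R64, which is the sacCer3 sequence, and 0 peak ends lay beyond a chromosome end. Windows reached 500 bp from the annotated translation start and stop, counted at an overlap of at least 1 bp and given counting from 1. Transcript ends were not annotated. Words of 24 bases were matched to both strands of the genome, and paralogs were aligned with Biopython 1.88. Python 3.11.15, numpy 2.4.6 and matplotlib 3.10.9 were used. Overlap counting was tested on simulated data and was right in 600 of 600 windows.

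The 10 genes, the class of each, the list of 36 related genes, the motifs and the measures were chosen with earlier results of these data known. The split of downstream windows by neighbouring gene and that of upstream windows by input peak were added after the peaks had been seen, as were the rate over all genes per kb found once and the overlap of all ChIP peaks. The genes named are the 10 members, annotated neighbours in their windows and, of the related list, *HSF1*, *MSN2*, *MSN4*, *SSB1*, *SSB2* and any gene without an upstream ChIP peak in *psh1 pGAL-3Flag-CSE4*. Alternatives were 250 bp windows, overlap by the peak centre, peaks of at least 50 bp, windows outside other genes, genes without 150 bp at each end, 147 bp around each peak centre, and rates per kb of sequence found once.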

Additional observations from a re-analysis of the deposited data

Results flagged for a closer look

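The difference between a *psh1* strain and its *PSH1* counterpart in the number of input peaks downstream of the 10 genes had opposite signs with and without the *GAL* copy. It was 3 without the copy (26 peaks in *psh1 3Flag-CSE4* and 23 in *3Flag-CSE4*) and -13 with it (9 in *psh1 pGAL-3Flag-CSE4* and 22 in *pGAL-3Flag-CSE4*). With 1 library per strain the difference between these values was not tested. Over all genes, the downstream window held an input peak at 93.3% in *3Flag-CSE4* and 90.2% in *psh1 3Flag-CSE4*. With the *GAL* copy the shares were 94.1% in *pGAL-3Flag-CSE4* and 64.2% in *psh1 pGAL-3Flag-CSE4*. The *psh1 pGAL-3Flag-CSE4* input list is also the shortest over the whole genome, with 18908 peaks. That of *psh1 3Flag-CSE4*, with 31268, is shorter than that of *3Flag-CSE4*, with 40108.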

How the results depend on the processing

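Of the values recomputed under alternatives, 46 stayed within 1.5 times the reported count and 6 moved further. Counts and rates carry no sign, so a change of direction could not be seen in them. Upstream in *psh1 pGAL-3Flag-CSE4*, the reported 10 of 10 genes stood against 94.2% of all genes. With 250 bp windows it was 9 of 10, without *SSA3*, against 90.7%. Outside other protein-coding genes it was 9 of 10, again without *SSA3*, against 93.7%. That count thus lay on either side of the share of all genes. With the first and last 150 bp of each gene left out, the number of genes with a ChIP peak was 0 in *pGAL-3Flag-CSE4* (1 as reported) and 0 in *psh1 pGAL-3Flag-CSE4* (4 as reported). With 250 bp windows the upstream input peaks numbered 12, 10, 12 and 7 in *3Flag-CSE4*, *psh1 3Flag-CSE4*, *pGAL-3Flag-CSE4* and *psh1 pGAL-3Flag-CSE4*, where 500 bp windows gave 23, 21, 22 and 14, since less sequence was searched. The downstream count of *pGAL-3Flag-CSE4* was 8 or 9 of 10 under every alternative run, against 31.3% to 42.5% of all genes. The upstream count was 1 of 10 throughout, against 40.6% to 50.7%. No paired analysis was possible because each group had 1 library and the labels carry no replicate numbers, and for the same reason no library could be left out. The lists give no read counts or peak heights, so a gene without a peak cannot be told from one just below the height used for calling. The 10 genes are few, and neighbouring genes share some of their windows and peaks.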
